A study of Mus musculus with 4 samples.

Results

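Chromosome ends in meiotic prophase are held by 2 sets of proteins, and the ribosome-protected fragments (RPFs) of 10 genes from these sets were followed in leptotene/zygotene spermatocytes with and without *Eef1g*. The meiotic attachment set held 5 genes, *Majin* (listed as 1700123I01Rik), *Terb1* (listed as Ccdc79), *Spdya*, *Sun1* and *Kash5* (listed as Ccdc155). The shelterin set held 5 genes, *Terf1*, *Terf2*, *Terf2ip*, *Pot1a* and *Tinf2*. Genes were chosen by their role, with earlier results of these data known, and matched by symbol. All 10 were found among the 11598 genes of the table. The study had named 5 of them (*Majin*, *Terb1*, *Spdya*, *Sun1* and *Terf1*) as genes with more RPFs from these same libraries, so their direction here is not independent evidence.

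Spermatocytes were sorted by FACS from testes of mice at postnatal day 12, and Ribo-seq was run on 2 control libraries and 2 *Eef1g*-cKO libraries. Ribo-seq counts the mRNA fragments that a ribosome shields from RNase I, here in lysates treated with cycloheximide, so it measures ribosome occupancy and not protein. In *Eef1g*-cKO mice, made on a C57BL/6J background, Stra8-GFPCre removes several exons of *Eef1g* in male germ cells from the spermatogonial stage on, and the somatic cells of the testis keep the gene. The labels give the controls as wild type, and the sources used here do not say whether they carried the floxed allele or Cre, nor how many mice went into a library. *Eef1g* encodes eEF1G, the scaffold subunit of the eEF1B complex that reloads the elongation factor eEF1A with GTP.

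Telomeres in every cell are covered by shelterin, whose subunits bind the double-stranded repeat, the single-stranded overhang or each other, and keep chromosome ends from being treated as breaks. In early meiotic prophase the telomeres are in addition fixed to the inner nuclear membrane by the TERB1-TERB2-MAJIN complex, which docks on TRF1, with Speedy A (the product of *Spdya*) and CDK2 at the same sites. The SUN1-KASH5 pair then spans the nuclear envelope and links each telomere to cytoplasmic dynein, which moves the chromosomes while homologs pair.

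The bases around the start codon of each gene are shown because they are where a scanning ribosome begins the coding sequence. The RPFs compared below are reads counted per gene, and the sources used here do not say whether only coding sequence was counted. Each line runs 5′ to 3′, with 9 bases before the start codon, the start codon ATG in capitals and 18 bases after it, from GENCODE transcripts on GRCm38.

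Majin: tcaaaaacaATGagtttaaaaccattcacc
Terb1: aagacaagcATGgaaagtgagaagccaaag
Spdya: gaagctaaaATGcggcataatcagatgtat
Sun1: acggtgaacATGgacttttctcggctgcac
Kash5: ctagtgcgcATGcactcgatcctcaggtcc
Terf1: cggtttaacATGgcggagacggtctcctca
Terf2: gtcggtatcATGgctgcgggagccgggaca
Terf2ip: gcgacaggtATGgcggaggcgatggatctg
Pot1a: catcaaacaATGtctttggtttcaacagct
Tinf2: ccgcgggccATGgccccacctccaggggta

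The favourable context for initiation in mammals has a purine (A or G) at position -3, counted back from the A of the ATG, and a G at position 4, directly after the ATG. A purine stood at position -3 in 9 of the 10 genes, with *Kash5* as the exception, against 86.2% of the 11100 genes of the table with an annotated start. A G at position 4 was present in 6 of the 10, in 2 of the attachment genes (*Terb1* and *Sun1*) and in 4 of the shelterin genes (all but *Pot1a*), against 53.1% of all genes. Both features were present in 6 of the 10 and in 46.0% of all genes. These matches describe the letters only, and with 5 genes a set no test was made.

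In coding sequence the attachment genes ranged more widely than the shelterin genes. *Terb1* and *Spdya* lay at the AT-rich end, with a GC content of 38.1% and 41.6%, which put them at percentiles 0.482 and 3.12 of the 11207 genes with a coding sequence. *Kash5* and *Terf2ip* lay at the other end, with 59.6% and 58.8%, at percentiles 86.7 and 82.9. *Majin* had 49.3%, *Sun1* 54.0%, *Terf1* 45.5%, *Terf2* 55.1%, *Pot1a* 45.7% and *Tinf2* 54.5%. The median was 49.3% in the attachment set, 54.5% in the shelterin set and 53.0% over all genes. GC at the wobble position of codons had closer medians, 54.9% and 55.2%, with 60.5% over all genes.

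The genes do not neighbour each other, with *Terb1*, *Terf2* and *Terf2ip* on chromosome 8. On GRCm38.p6 (RefSeq) *Majin* spans chr19:6184345-6224230, *Terb1* chr8:104446718-104509887, *Spdya* chr17:71526895-71589533, *Sun1* chr5:139200564-139249839 and *Kash5* chr7:45183619-45204919. *Terf1* spans chr1:15805546-15844052, *Terf2* chr8:107069400-107096548, *Terf2ip* chr8:112011359-112020528, *Pot1a* chr6:25743940-25809277 and *Tinf2* chr14:55676208-55682159. *Spdya* overlaps *Trmt61b* and *Tinf2* overlaps *Gmpr2*, both of which are also in the table, and *Pot1a* has a close paralog in *Pot1b*. Reads of these neighbours and paralogs may be shared in ways the table does not show.

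Depth differed between the genotypes. The controls held 2479504 and 1384282 reads counted on genes and the *Eef1g*-cKO libraries 223906 and 407979, with a median of 60 and 34 reads per gene against 5 and 8. The targeted gene had 107 and 58 reads in control against 0 and 4 in *Eef1g*-cKO, a log2 fold change of -3.39 (SE 0.91, limma adjusted p = 0.0731). All 10 markers of the sorted leptotene/zygotene stage were in the table, as were all 10 of spermatogonia, while none of the 4 macrophage or 4 blood markers was listed. The summed RPFs of the leptotene/zygotene markers were 6249 and 5720 reads per 1000000 counted reads (RPM) in control against 15489 and 14248 in *Eef1g*-cKO, 2.48-fold higher, and 5 of these markers (*Sycp3*, *Hormad1*, *Dmc1*, *Smc1b* and *Meiob*) were also named by the study. Markers of spermatogonia took 2649 and 3207 RPM in control against 460 and 456 in *Eef1g*-cKO, 6.39-fold higher in control. Sertoli cell markers (6 of 7 in the table) took 963 and 220 against 201 and 135, so that control replicate 1 stood apart. Preleptotene markers took 783 and 828 against 1032 and 895, and pachytene markers (4 of 8 in the table) 545 and 395 against 701 and 836. Members of these lists went different ways. *Stra8* fell from a mean of 256 to 111 FPKM, while *Prdm9*, *Ythdc2* and *Meioc* (listed as Gm1564) were higher. *Piwil1* fell from 5.56 to 1.19 FPKM, while *Hspa2*, *Mybl1* and *Ldhc* were higher. *Hspa2* gave most of the pachytene marker reads. Leydig markers (3 of 5) took 7.26 and 11.6 RPM in control against 8.93 and 4.90 in *Eef1g*-cKO. Peritubular markers (2 of 4) took 110 and 60.0 against 13.4 and 51.5, lower in both *Eef1g*-cKO libraries.

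The attachment genes had more RPFs in *Eef1g*-cKO and the shelterin genes went different ways. *Majin*, *Terb1*, *Spdya* and *Sun1* rose between 2.54-fold and 3.40-fold on the FPKM + 1 scale, and *Kash5* was 1.47-fold higher without passing the test. Of the shelterin genes *Terf1* was 2.48-fold higher and passed only without adjustment, *Pot1a* was lower and passed only without adjustment, and *Terf2*, *Terf2ip* and *Tinf2* did not pass. FPKM are RPF reads scaled by gene length in kilobases and by the library's total of reads on genes, and differences were tested with limma on log2(FPKM + 1) over 10475 genes. A gene was called at an adjusted p under 0.05 together with a log2 fold change beyond 1 in either direction. By that rule 4 of the 10 genes were called higher, all of them attachment genes and all among those the study had named, against a background of 2.87% of all genes tested, and 0 were called lower, against 4.97%. With the unadjusted p in place of the adjusted one, 5 were called higher (7.32% of all genes) and 1, *Pot1a*, lower (16.3%). Of the 5 genes that the study had not named, 0 were called higher and 1 lower by the unadjusted rule, and 0 in either direction by the adjusted rule. The 4 calls were lost when either control library was left out, where limma called 0 of all genes by adjusted p. By unadjusted p, 5 of the 10 genes were still called higher without control replicate 1, against 5.23% of all genes, and 4 without control replicate 2, against 4.57%.

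Both *Eef1g*-cKO libraries lay beyond both control libraries for all 10 genes. They lay above for 8 genes, where 24.6% of all genes tested did so, and below for 2, *Terf2* and *Pot1a*, where 37.7% of all genes did so. The median log2 fold change was 1.35 in the attachment set and 0.31 in the shelterin set, beside -0.23 over all genes. All attachment genes but *Kash5*, and of the shelterin genes only *Terf1*, had been named by the study from these libraries. The contrast of the 2 sets is therefore not independent evidence. *Kash5* had 0.55, beside 0.65 for *Terf2ip* and 0.31 for *Tinf2*, while *Terf2* and *Pot1a* were lower. In bulk libraries such as these, fewer cells of a type and fewer RPFs per cell cannot be told apart, and RPF levels do not separate mRNA amount from ribosome load. The paper also reports comparable purity of the sorted cells in both genotypes by staining, and RNA-seq of such cells. In that RNA-seq it links the genes with more mRNA to meiotic nuclear division. From Ribo-seq and RNA-seq together it computed translational efficiency and reports no selective change for meiotic transcripts. None of these data were used here.

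**Figure D1:**
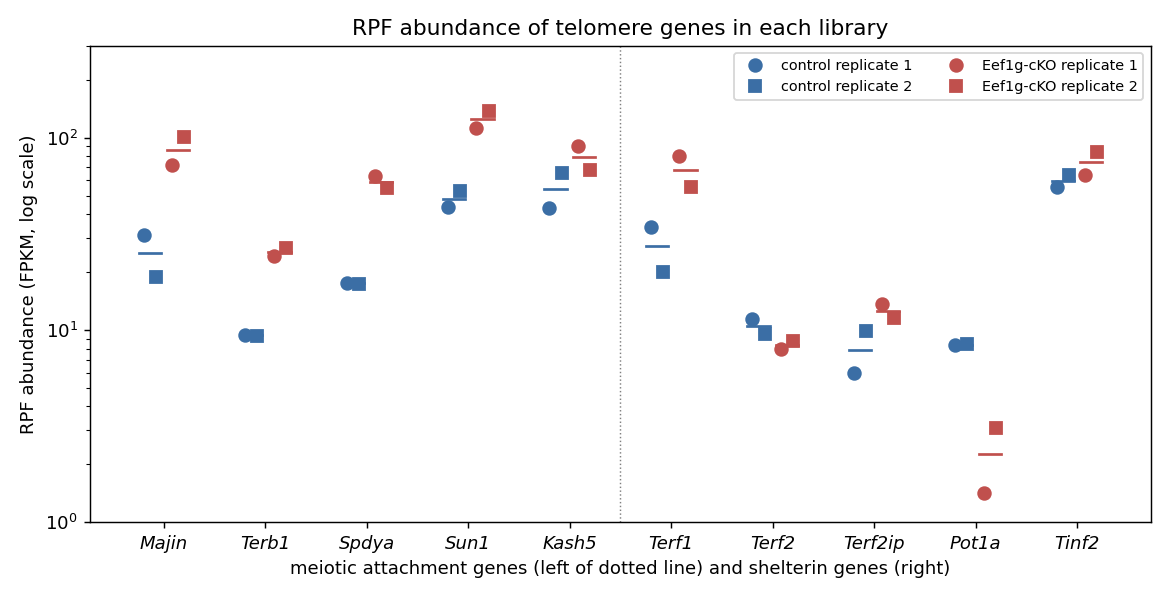
RPF abundance of the 10 genes in each of the 4 libraries, in FPKM on a log axis, with attachment genes left of the dotted line and shelterin genes right of it. Points are libraries (circles replicate 1, squares replicate 2; blue control, red *Eef1g*-cKO) and short lines are genotype means; the red points lie above the blue ones for 8 genes and below them for *Terf2* and *Pot1a*.

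*Majin* encodes the membrane anchor of the attachment complex in the inner nuclear membrane. Its RPF abundance was 31.3 and 18.8 FPKM in the control libraries (125 and 42 reads) and 72.0 and 100.3 FPKM in the *Eef1g*-cKO libraries (26 and 66 reads). Although the controls differed from each other, the lower *Eef1g*-cKO library was still well above the higher control. The mean went from 25.0 ± 8.80 to 86.1 ± 20.0 FPKM (SD, n = 2 each), which is a log2 fold change of 1.77 (SE 0.33, limma adjusted p = 0.0389), the largest of the 10.

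*Terb1* encodes the subunit that joins TRF1 to the membrane complex. It had 9.43 and 9.31 FPKM in control (69 and 38 reads) and 24.2 and 26.6 FPKM in *Eef1g*-cKO (16 and 32 reads). Replicates agreed closely within each genotype and the genotypes were far apart. The means were 9.37 ± 0.0904 and 25.4 ± 1.67 FPKM (SD, n = 2 each), which is a log2 fold change of 1.35 (SE 0.29, limma adjusted p = 0.0484). This call was near the threshold. It was lost when the trend of each library with coding GC content was removed, a setting chosen after the data had been seen, where *Terb1*, among the most AT-rich genes of the table, had 0.87 (limma adjusted p = 0.115).

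*Spdya* encodes Speedy A, an activator of CDK2 that sits at meiotic telomeres. The control libraries held 17.6 and 17.4 FPKM (96 and 53 reads) and the *Eef1g*-cKO libraries 63.0 and 54.6 FPKM (31 and 49 reads). As with *Terb1*, the spread within a genotype was small beside the gap between genotypes. The means of 17.5 ± 0.138 and 58.8 ± 5.90 FPKM (SD, n = 2 each) gave a log2 fold change of 1.69 (SE 0.24, limma adjusted p = 0.0296), the lowest adjusted p of the 10. *Cdk2*, its partner kinase, had 38.1 ± 4.74 and 55.4 ± 2.96 FPKM (SD, n = 2 each), with a log2 fold change of 0.53, which did not pass (limma adjusted p = 0.179).

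*Sun1* encodes the SUN-domain protein of the inner nuclear membrane to which the attachment complex is tied. It was the best covered of the 10 genes, with 447 and 302 reads in control against 104 and 231 in *Eef1g*-cKO. These were 43.6 and 52.8 FPKM against 112 and 137 FPKM, with no overlap. Its mean rose from 48.2 ± 6.48 to 125 ± 17.4 FPKM (SD, n = 2 each), which is a log2 fold change of 1.35 (SE 0.23, limma adjusted p = 0.0352). *Sun2*, which encodes another SUN protein of the inner nuclear membrane, had 29.4 ± 7.26 and 36.0 ± 5.44 FPKM (SD, n = 2 each) with overlapping libraries.

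*Kash5* encodes the outer nuclear membrane partner of SUN1, which binds dynein. It had 43.1 and 65.4 FPKM in control (236 and 200 reads) and 90.9 and 67.7 FPKM in *Eef1g*-cKO (45 and 61 reads). The libraries did not overlap, but the higher control and the lower *Eef1g*-cKO library were nearly level. The means were 54.2 ± 15.8 and 79.3 ± 16.5 FPKM (SD, n = 2 each), and the log2 fold change of 0.55 did not pass (SE 0.29, limma adjusted p = 0.253). With the coding GC trend removed it was 1.13 and passed (limma adjusted p = 0.0432), and *Kash5* is the most GC-rich of the 10 in coding sequence. The ratio of *Sun1* to *Kash5* FPKM was 1.01 and 0.807 in control against 1.24 and 2.02 in *Eef1g*-cKO.

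*Terf1* encodes TRF1, which binds the double-stranded telomere repeat and receives TERB1 in meiosis. It had 34.5 and 20.1 FPKM in control (194 and 63 reads) and 80.7 and 55.1 FPKM in *Eef1g*-cKO (41 and 51 reads). The genotypes did not overlap, with a wide spread within each. The means were 27.3 ± 10.2 and 67.9 ± 18.1 FPKM (SD, n = 2 each). The log2 fold change was 1.31 (SE 0.35), of the size seen in *Terb1* and *Sun1*, and it missed the adjusted threshold (limma adjusted p = 0.0709, unadjusted p = 0.00985). It passed in edgeR's quasi-likelihood test on the recovered reads (adjusted p = 0.00508), which called 5 of the 10 genes higher, against 8.75% of the genes it tested, and 0 lower, against 11.2%, and in DESeq2 (adjusted p = 0.0201), and its adjusted p ranged from 0.00508 to 0.945 over all 16 alternatives. Without control replicate 2, the lower control, its log2 fold change was 0.93.

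*Terf2* encodes TRF2, the other protein that binds the double-stranded repeat, which protects ends by folding them into a loop. It had 11.4 and 9.54 FPKM in control (111 and 52 reads) and 7.94 and 8.72 FPKM in *Eef1g*-cKO (7 and 14 reads). The libraries did not overlap, but in *Eef1g*-cKO the values rested on few reads. The means were 10.5 ± 1.29 and 8.33 ± 0.548 FPKM (SD, n = 2 each), and the log2 fold change of -0.29 did not pass (SE 0.35, limma adjusted p = 0.597). The ratio of *Terf1* to *Terf2* FPKM, 3.03 and 2.10 in control, was 10.2 and 6.32 in *Eef1g*-cKO, so that the balance of the 2 repeat-binding genes lay further toward *Terf1* in both *Eef1g*-cKO libraries.

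*Terf2ip* encodes RAP1, which binds TRF2. It had 5.94 and 9.84 FPKM in control (53 and 49 reads) and 13.7 and 11.6 FPKM in *Eef1g*-cKO (11 and 17 reads). Its *Eef1g*-cKO libraries were the higher ones, opposite in direction to those of *Terf2*. The means of 7.89 ± 2.75 and 12.6 ± 1.47 FPKM (SD, n = 2 each) gave a log2 fold change of 0.65, which did not pass (SE 0.39, limma adjusted p = 0.304).

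*Tinf2* encodes TIN2, which bridges TRF1, TRF2 and the POT1-TPP1 arm. It had 55.2 and 63.6 FPKM in control (238 and 153 reads) and 64.2 and 84.6 FPKM in *Eef1g*-cKO (25 and 60 reads). The higher control and the lower *Eef1g*-cKO library were almost equal. The means were 59.4 ± 5.92 and 74.4 ± 14.4 FPKM (SD, n = 2 each), with a log2 fold change of 0.31, which did not pass (SE 0.24, limma adjusted p = 0.411). With all libraries thinned to the depth of the smallest, the value was -0.043.

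*Pot1a* encodes a protein that binds the single-stranded overhang. It had 8.31 and 8.48 FPKM in control (65 and 37 reads) and 1.42 and 3.11 FPKM in *Eef1g*-cKO (1 and 4 reads). It was the only one of the 10 genes to lie at or near the level of single reads in *Eef1g*-cKO, and the only one with a log2 fold change below -1. The means were 8.40 ± 0.115 and 2.26 ± 1.20 FPKM (SD, n = 2 each), which is a log2 fold change of -1.58 (SE 0.48, limma adjusted p = 0.0923, unadjusted p = 0.0170). Its unadjusted call was lost when either control library was left out (-1.59 without control replicate 1 and -1.56 without control replicate 2), with DESeq2 and with a pseudocount of 5 FPKM. Leaving out *Eef1g*-cKO replicate 2 gave -1.96 (limma adjusted p = 0.0205), but that fit set 1 library with 1 *Pot1a* read against the controls and took its spread from the controls alone, so it holds no measure of the spread in *Eef1g*-cKO. *Pot1b*, its paralog, had 8.64 and 6.81 FPKM in control and 11.5 and 9.81 FPKM in *Eef1g*-cKO (9 and 14 reads), with a log2 fold change of 0.42 (limma adjusted p = 0.461). The ratio of *Pot1a* to *Pot1b* FPKM was 0.962 and 1.24 in control against 0.123 and 0.317 in *Eef1g*-cKO.

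Counting error alone can be read from the summed reads of each genotype, as the *Eef1g*-cKO to control ratio of RPM with its exact 95% interval. These intervals leave out the spread between replicates, and PCR copies without molecular identifiers make them too narrow. For the attachment genes the ratio was 3.37 (2.58 to 4.37) for *Majin*, 3.28 (2.47 to 4.34) for *Spdya*, 2.74 (1.91 to 3.89) for *Terb1*, 2.73 (2.40 to 3.12) for *Sun1* and 1.49 (1.19 to 1.84) for *Kash5*. The interval of *Kash5* lay below those of the other attachment genes, touching none of them. For the shelterin genes it was 2.19 (1.71 to 2.79) for *Terf1*, 1.68 (1.06 to 2.57) for *Terf2ip*, 1.33 (1.04 to 1.68) for *Tinf2*, 0.788 (0.475 to 1.24) for *Terf2* and 0.300 (0.0953 to 0.723) for *Pot1a*, the last from 102 reads in control and 5 in *Eef1g*-cKO. Only the interval of *Terf2* held equal levels.

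**Figure D2:**
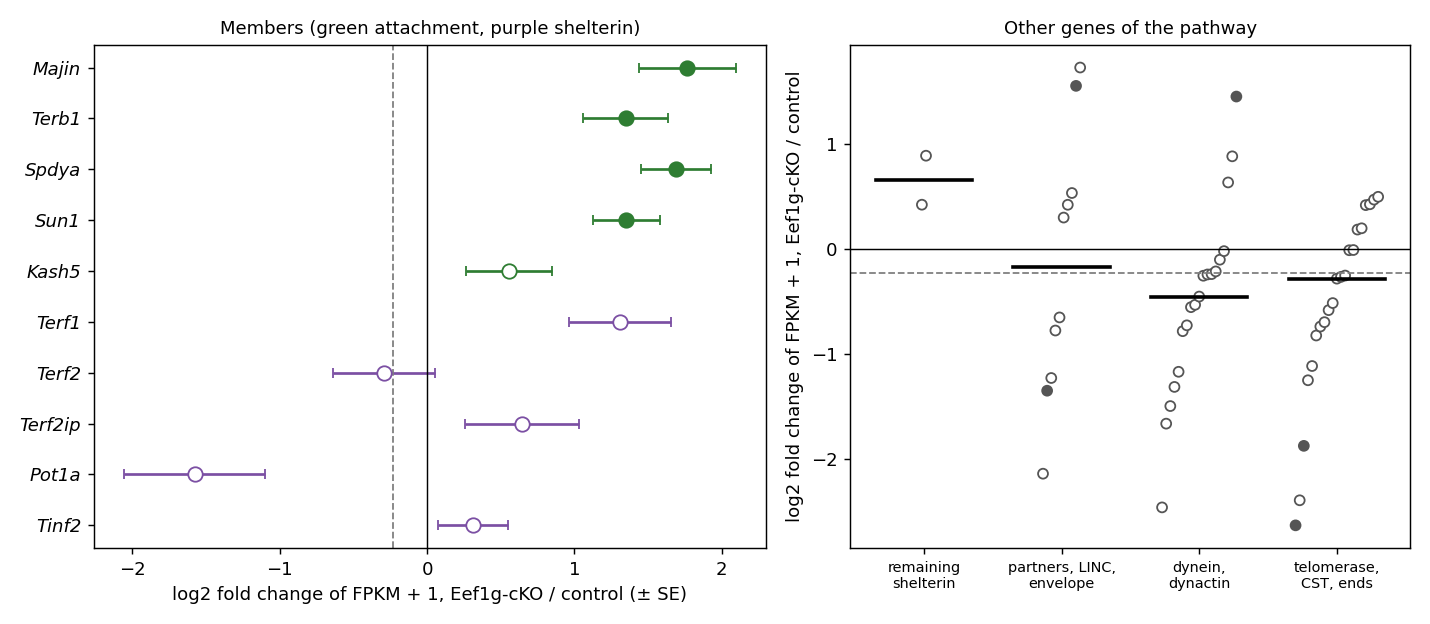
Log2 fold change of FPKM + 1 in *Eef1g*-cKO against control. Left, the 10 genes with limma standard errors (green attachment, purple shelterin); right, the other 52 tested genes of the pathway as points by list, with a bar at each list's median. Filled points were called at adjusted p under 0.05 with a log2 fold change beyond 1 in either direction, and the dashed line is the median of all genes tested, -0.23; among the 10 genes only *Majin*, *Terb1*, *Spdya* and *Sun1* are filled.

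Ranked by mean level, the genes stood in a different order in each genotype. Levels are in FPKM, which divide by the length of the gene with its untranslated parts. In control *Tinf2*, *Kash5* and *Sun1* were the most abundant (59.4, 54.2 and 48.2 FPKM). The libraries of *Kash5* overlapped those of both others, while *Tinf2* lay above *Sun1* in both libraries. *Terf1* and *Majin* followed at 27.3 and 25.0 FPKM, also overlapping, then *Spdya* at 17.5 FPKM and *Terf2*, *Terb1*, *Pot1a* and *Terf2ip* between 10.5 and 7.89 FPKM, of which only *Pot1a* and *Terf2ip* overlapped as neighbours. In *Eef1g*-cKO *Sun1* stood above all others at 125 FPKM. *Majin*, *Kash5*, *Tinf2*, *Terf1* and *Spdya* followed from 86.1 to 58.8 FPKM, each overlapping the next, and below them, with no overlap between neighbours, came *Terb1*, *Terf2ip*, *Terf2* and *Pot1a*. *Majin* and *Terb1*, whose products form 1 complex, kept a ratio of 3.31 and 2.02 in control against 2.97 and 3.77 in *Eef1g*-cKO, which overlapped.

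Summed over their 5 genes, the attachment set took 392 and 459 RPM in control against 991 and 1076 in *Eef1g*-cKO. The shelterin set took 267 and 256 in control against 380 and 358 in *Eef1g*-cKO. Neither sum overlapped between genotypes. The mean went from 426 ± 46.9 to 1034 ± 59.8 for attachment, 2.43-fold, and from 261 ± 7.68 to 369 ± 15.4 for shelterin, 1.41-fold (SD, n = 2 each). These sums are not scaled by gene length and rest largely on a few genes. *Sun1* gave 447 of 973 and 302 of 635 attachment reads in control, and 104 of 222 and 231 of 439 in *Eef1g*-cKO. *Tinf2* and *Terf1* together gave most shelterin reads in every library. The attachment sum was 1.47 and 1.79 times the shelterin sum in control and 2.61 and 3.01 times in *Eef1g*-cKO. In both *Eef1g*-cKO libraries the attachment genes thus held a larger part of the 2 sets together, 72.3% and 75.0% against 59.5% and 64.2%. The study had named all attachment genes but *Kash5*, and only *Terf1* of the shelterin genes, as higher in these libraries. The difference between the sets is therefore not independent evidence. No test was made of the ratio of the 2 sums, since an exact permutation test of 2 against 2 libraries cannot go below p = 0.333. Leaving the most abundant gene, the small nuclear RNA *Rnu11*, out of the denominator gave 2.33-fold and 1.35-fold.

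As a sum, the leptotene/zygotene markers moved by about as much as the attachment genes, but single markers differed. Their log2 fold changes ran from -0.54 to 2.29 (median 1.21), and 5 of the 10 were called higher, against 2.87% of all genes. Both *Eef1g*-cKO libraries lay above both controls for 9 of the 10, against 24.6% of all genes. *Rec8* had a lower mean in *Eef1g*-cKO, 22.6 against 35.3 FPKM, with overlapping libraries. Per 1000 reads on these 10 markers the attachment set had 62.8 and 80.2 reads in control against 64.0 and 75.5 in *Eef1g*-cKO, which overlapped. The shelterin set had 42.7 and 44.7 in control against 24.5 and 25.1 in *Eef1g*-cKO, lower in both. On the 5 markers that the study had not named, the attachment set had 106 and 128 against 112 and 136 reads, again overlapping. The shelterin set had 72.3 and 71.4 against 43.0 and 45.2. Most reads of these 5 markers were from *Tex101* (4796 and 3342 in control, 1433 and 2271 in *Eef1g*-cKO), so these values rest largely on that gene. *Sycp1*, for comparison, had 1988 and 637 against 234 and 431. Values without *Tex101* were not computed. When all libraries were scaled to the same sum of the 10 markers, a setting chosen after the data had been seen, 0 of the 10 genes were called higher by adjusted p, against 0.430% of all genes, and 2, *Terf2* and *Pot1a*, lower, against 52.1% of all genes. Lower calls were thus no more frequent among the 10 genes than over all genes on this scale. The log2 fold changes were then between 0.06 and 0.49 for *Majin*, *Terb1*, *Spdya* and *Sun1*, -0.74 for *Kash5*, -1.47 for *Terf2* (limma adjusted p = 0.0151) and -2.58 for *Pot1a* (limma adjusted p = 0.00616). Which scale fits the cells cannot be told from RPFs, and the part of the spermatogonial markers in the difference was not tested.

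**Figure D3:**
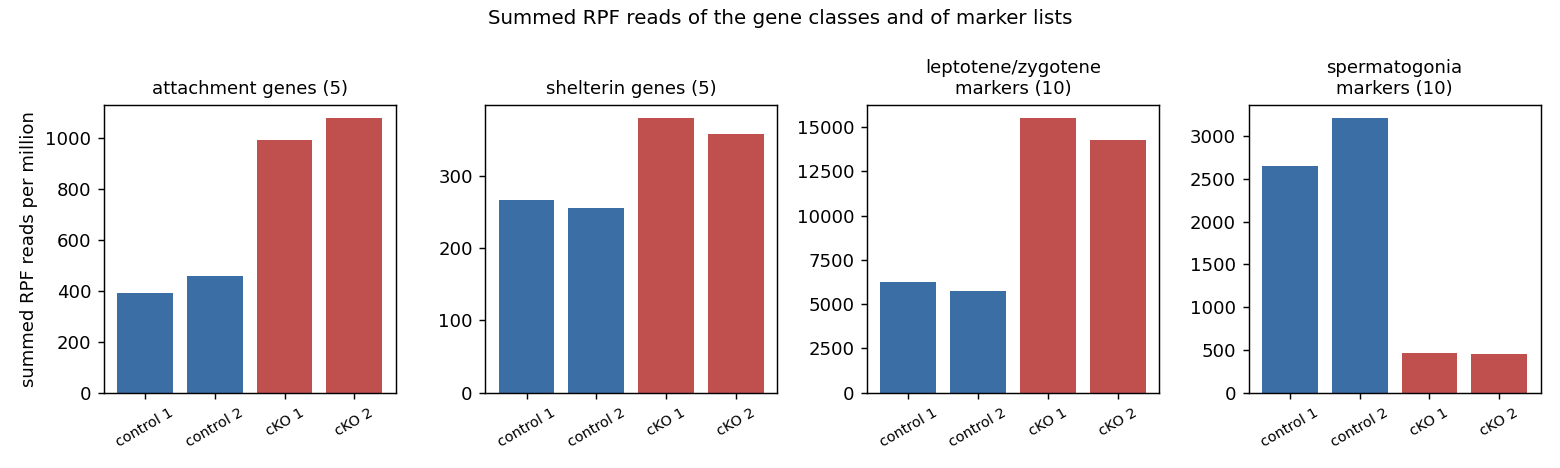
Summed RPFs, in RPM, in each library for the 5 attachment genes, the 5 shelterin genes, the 10 leptotene/zygotene markers and the 10 spermatogonial markers, as bars from 0 with a separate axis for each panel (blue control, red *Eef1g*-cKO). The attachment and leptotene/zygotene panels have much the same shape, 2.43-fold and 2.48-fold higher in *Eef1g*-cKO, the shelterin panel rises 1.41-fold, and the spermatogonial panel is 6.39-fold higher in control.

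The other genes of the pathway were read from 4 lists of 54 genes, all in the table and 52 tested. By adjusted p 2 were called higher (3.85%, against 2.87% of all genes) and 3 lower (5.77%, against 4.97%). By unadjusted p 3 were called higher (5.77%, against 7.32%) and 10 lower (19.2%, against 16.3%). Their median log2 fold change was -0.27, close to the -0.23 of all genes. Both *Eef1g*-cKO libraries were above both controls for 10 genes (19.2%, against 24.6% of all genes) and below for 24 (46.2%, against 37.7%), so these shares lay near those of all genes.

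Of the remaining shelterin genes, *Acd*, which encodes TPP1, the partner of POT1, had 8.21 and 10.6 FPKM in control and 31.3 and 10.3 FPKM in *Eef1g*-cKO (10 and 6 reads). The second *Eef1g*-cKO library lay between the controls, and the log2 fold change of 0.89 did not pass (SE 0.55, limma adjusted p = 0.316).

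Among 12 partners of the attachment complex, LINC and nuclear envelope genes, 10 were tested. Of these 1 was called higher (10%, against 2.87% of all genes) and 1 lower (10%, against 4.97%). By unadjusted p they were 2 (20%, against 7.32%) and 2 (20%, against 16.3%). *Terb2* (listed as 4933406J08Rik), which encodes the subunit between TERB1 and MAJIN, had the largest log2 fold change of the list. It had 2.48 and 3.76 FPKM in control (13 and 11 reads) and 14.8 and 10.5 FPKM in *Eef1g*-cKO (7 and 9 reads). The libraries did not overlap, and the log2 fold change was 1.72, on few reads. It passed only without adjustment (SE 0.43, limma adjusted p = 0.0623, unadjusted p = 0.00723). *Banf1*, which encodes a chromatin protein of the nuclear envelope, rose from 249 and 277 FPKM to 942 and 631 FPKM, by 1.55 on the log2 scale (SE 0.26, limma adjusted p = 0.0353). *Lmnb1*, which encodes lamin B1, fell from 101 and 139 FPKM to 53.4 and 39.6 FPKM, a log2 fold change of -1.35 (SE 0.27, limma adjusted p = 0.0437). *Lmnb2*, which encodes lamin B2, had the lowest value of the list, -2.14, with 83 and 91 reads in control against 2 and 3 in *Eef1g*-cKO. It passed only without adjustment (SE 0.47, limma adjusted p = 0.0519, unadjusted p = 0.00434). The list's median was -0.18.

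Of 19 dynein and dynactin genes, the motor to which KASH5 connects, 1 was called higher (5.26%, against 2.87% of all genes) and 0 lower (4.97% of all genes). By unadjusted p they were 1 (5.26%, against 7.32%) and 4 (21.1%, against 16.3%). *Dync1i2*, which encodes a dynein intermediate chain, rose from 53.7 and 42.8 FPKM to 133 and 132 FPKM, by 1.45 on the log2 scale (SE 0.22, limma adjusted p = 0.0307). *Dynlt1b*, which encodes a dynein light chain, had 24 and 15 reads in control against 1 and 0 in *Eef1g*-cKO. The log2 fold change of *Dynlt1b*, -2.46, passed only without adjustment (SE 0.91, limma adjusted p = 0.137, unadjusted p = 0.0364). From the summed reads its *Eef1g*-cKO to control ratio was 0.157, with an exact 95% counting interval of 0.00387 to 0.927. The list's median was -0.45.

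Of 21 genes of telomerase, the CST complex and end processing, 0 were called higher (2.87% of all genes) and 2 lower (9.52%, against 4.97%). By unadjusted p they were 0 (7.32% of all genes) and 4 (19.0%, against 16.3%). *Tert*, which encodes the catalytic subunit of telomerase, had 37 and 29 reads in control (4.36 and 6.11 FPKM) and 0 and 0 reads in *Eef1g*-cKO, and was called lower (limma adjusted p = 0.0405). Taking 3 reads as the limit that a count of 0 allows in each library, it was at least 1.73-fold lower. *Nhp2*, which encodes a protein of the telomerase and snoRNA particles, fell from 77.9 and 111 FPKM to 31.1 and 19.5 FPKM, a log2 fold change of -1.87 (SE 0.32, limma adjusted p = 0.0354). *Rif1*, whose product acts at breaks and in replication timing, had the highest value of the list, 0.50, and did not pass (SE 0.29, limma adjusted p = 0.301). The spermatogonial markers were lower in *Eef1g*-cKO along with *Tert* and *Nhp2* (6 of 10 called lower by adjusted p, against 4.97% of all genes), and their part in the difference was not tested.

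**Figure D4:**
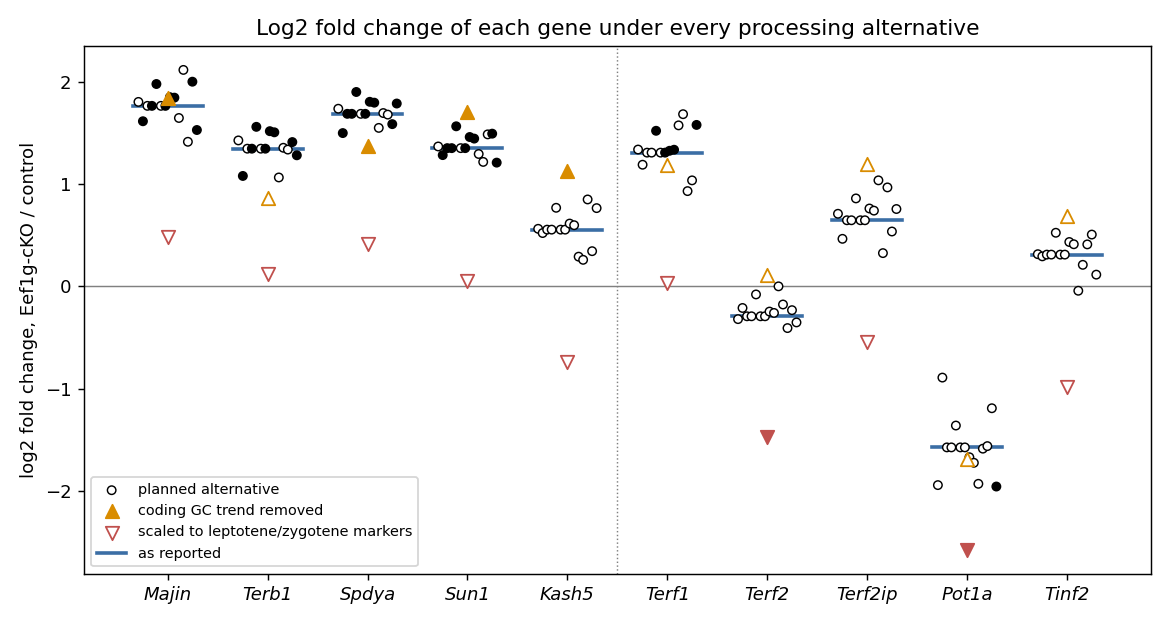
Log2 fold change of each of the 10 genes in *Eef1g*-cKO against control under each of 16 alternatives, with blue bars at the value reported above. Circles are the 14 alternatives planned first, triangles up the removal of the coding GC trend and triangles down the scaling to leptotene/zygotene markers; filled symbols were called at adjusted p under 0.05 with a log2 fold change beyond 1 in either direction. *Majin*, *Terb1*, *Spdya*, *Sun1* and *Terf1* stay above 0 and *Pot1a* below 0 throughout, and the triangles down lie lowest for every gene.

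Across these settings *Majin* ranged from 0.49 to 2.12, *Spdya* from 0.42 to 1.90, *Sun1* from 0.06 to 1.70, *Terb1* from 0.12 to 1.56 and *Terf1* from 0.03 to 1.68, each with the lowest value under the marker scaling. Within the 14 alternatives planned first the lowest values were 1.41, 1.50, 1.21, 1.07 and 0.93 in the same order. *Pot1a* ranged from -2.58 to -0.89. *Kash5*, *Terf2*, *Terf2ip* and *Tinf2* changed direction or came to 0 under at least 1 setting.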

How the data were processed

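RPFs (26–34 nt) were prepared with the QEZ-seq kit. Per the labels' processing notes the submitters used cutadapt, Bowtie and STAR and named the builds mm10 and hg38. Versions, counter, annotation and the differential test are not given in the sources used here. The paper reports 502 genes with more and 451 with fewer RPFs, and DESeq2 by adjusted p on the recovered reads gave the same counts. That fit called 5 of the 10 genes higher (4.33% of all genes) and 0 lower (3.89%). The main test here, limma, gave other counts. The authors deposited 1 table with FPKM per gene and library and a normalized signal, each gene's count divided by a size factor; 100% of these values gave whole reads (tolerance 0.001 reads). The listed genes have at least 10 reads over the 4 libraries. The deposited fold changes, test scores and p-values of the authors' own comparison were not used, and no per-sample column was left unused.

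Genotypes were compared on log2(FPKM + 1) in limma 3.58.1 under R 4.3.3, with a trended prior variance and Benjamini-Hochberg adjustment over the 10475 genes whose mean reached 1 FPKM. Fold changes on this scale understate those of low genes. Counting floors used 3 reads and intervals were exact at 95%. Alternatives included edgeR 4.0.16 and DESeq2 1.42.0 on the recovered reads, other pseudocounts and filters, centring, thinning, a replicate block and leaving out each library. The fits were also run on simulated data. The changes planted there were larger than those of the 10 genes in the main fit, so that run does not bear on their calls. The genes, lists and markers were chosen with earlier results of these data known. The text names all 10 genes and, from each pathway list, those called and the highest and lowest; *Cdk2* and *Sun2* were added after their values were seen. The labels call the replicates independent, but do not say how many mice each holds. Start codons and coding sequences are from GENCODE (GRCm38) and gene positions from RefSeq.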

Additional observations from a re-analysis of the deposited data

How the results depend on the processing

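The 10 genes were refitted under 16 alternatives, of which 2, removal of the coding GC trend and scaling to the leptotene/zygotene markers, were chosen after the data had been seen. Of the 10 genes 4 were called higher by adjusted p (2.87% of all genes), and 2 were with no filter on low values (1.77%). The share of all genes called higher was 0.277% with a pseudocount of 0.1 FPKM and 0% with an untrended prior or thinning. Under the marker scaling it was 0.430% by adjusted p and 0.601% by unadjusted p. With a pseudocount of 0.1 FPKM, a prior variance without a trend, thinning to the smallest library or the marker scaling, 0 were called higher (and 0 of the attachment genes), and leaving out a library gave 0 to 5 (attachment 0 to 4). By unadjusted p the marker scaling left 0 of the genes, of the attachment set and of the shelterin set called higher, and leaving out a library gave 4 to 5. Lower calls by adjusted p were 2 under the marker scaling, against 52.1% of all genes. By unadjusted p they were 0 with a pseudocount of 5 FPKM (9.56% of all genes) or DESeq2 (8.26%) and 2 under the marker scaling (57.1%). In the shelterin set 1 gene, *Terf1*, was called higher by adjusted p after centring the libraries (4.97% of all genes) and with a replicate block (4.05%). It was also called in edgeR (8.75%) and in DESeq2 (4.33%). On leaving out a library its log2 fold change ran from 0.93 to 1.68. By unadjusted p 0 shelterin genes were called higher with thinning (7.2% of all genes) and 2 with the GC trend removed (10.7%).

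The attachment median of 1.35 was 0.12 under the marker scaling. The shelterin median of 0.31 was 0.52 after centring, 0.00 with thinning, 0.11 to 0.51 on leaving out a library, 0.69 with the GC trend removed and -0.98 under the marker scaling. Values changed sign for *Kash5* (-0.74), *Terf2ip* (-0.54) and *Tinf2* (-0.98) under the marker scaling, for *Tinf2* with thinning (-0.043) and for *Terf2* with the GC trend removed (0.11). Centring moved the median of all genes from -0.23 to -0.02.

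For the other pathway genes, 2 called higher became 0 with a pseudocount of 0.1 FPKM, an untrended prior, thinning or the marker scaling, and 0 to 4 on leaving out a library. The 3 called lower became 0 with the first 3 of these settings, 6 with a pseudocount of 5 FPKM or a minimum of 5 FPKM, 7 with a replicate block, 8 in edgeR, 5 in DESeq2, 0 to 9 on leaving out a library and 34 under the marker scaling. Of all genes, 6.74% were called lower with a pseudocount of 5 FPKM, 8.14% with a minimum of 5 FPKM and 7.85% with a replicate block. This share was 11.2% in edgeR, 3.89% in DESeq2 and 52.1% under the marker scaling. The median of the other pathway genes, -0.27, was -0.060 after centring, -0.49 to -0.30 on leaving out a library and -1.54 under the marker scaling. Over all genes, 301 called higher and 521 lower became 29 and 47 with a pseudocount of 0.1 FPKM, 521 and 383 after centring, 0 and 0 with an untrended prior or thinning (793 and 1811, and 743 and 1243, by unadjusted limma p; edgeR called 705 and 904), 502 and 451 in DESeq2, 570 and 393 with the GC trend removed, and 45 and 5452 under the marker scaling. Leaving out a library gave 0 to 537 higher and 0 to 1432 lower, with 0 without control replicate 1 (548 and 1013 by unadjusted limma p) and without control replicate 2 (479 and 795). A fit without 1 library assumes that the lone library of that genotype varies like the other genotype. The cause of these differences was not tested.

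Replicate numbers were shared between the genotypes, but the deviations of same-numbered libraries had a correlation of -0.00804 across genes, so the numbers were not treated as pairs. The replicate block called 424 genes higher (4.05% of all genes) and 822 lower (7.85%), and 5 of the 10 genes higher. The low depth of the *Eef1g*-cKO libraries, 1 to 14 reads for *Pot1a* and *Terf2*, limits what can be said of those genes.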
